A study of Homo sapiens with 12 samples.

Results

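The genes described here belong to the TRAIL system of cell death: the ligand TNFSF10 (TRAIL), the death receptors TNFRSF10A (DR4) and TNFRSF10B (DR5), the decoy receptor TNFRSF10D (DcR2), the adaptor FADD, the initiator caspase CASP8 and its inhibitor CFLAR (c-FLIP). They were chosen by name, together with the observation that TNFRSF10D was higher after nicotine in both cell lines. All their probe sets were taken: 21 of the 22277 on the array, for 6 of the 7 genes, and TNFRSF10A is not analysed here. The nicotine values of TNFRSF10D are therefore a description of what chose the set and carry no test.

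Total RNA was profiled on 12 Affymetrix arrays in 4 groups of 3 replicates. The groups were LnCaP cells with 100 µM nicotine tartrate for 24 h, untreated LnCaP cells, 22RV1 cells with the same nicotine exposure, and untreated 22RV1 cells. Both are long-established lines of human prostate cancer, LnCaP derived from a lymph node metastasis and 22RV1 from a xenograft. The controls are called untreated, with no vehicle named, and nothing in the labels says that replicates came from separate cultures, so the p-values reflect only array-to-array spread, possibly technical.

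TRAIL is a membrane-bound or shed ligand of the tumour necrosis factor family. When it clusters a death receptor, the receptor's cytoplasmic death domain recruits FADD, which in turn recruits and activates CASP8. CFLAR resembles CASP8, enters the same complex and limits its activation. Decoy receptors bind the ligand too, but TNFRSF10D has only a truncated death domain and does not pass the signal on. In many cells the signal also needs cleavage of BID by CASP8 to reach the mitochondria. Prostate cancer lines differ widely in how readily TRAIL kills them, and LnCaP is known as a rather resistant line.

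The luminal prostate markers KLK3, KLK2, FOLH1, HOXB13, KRT8 and KRT18 were each above the median probe set in all 4 groups. Their mean per array was 11.16 to 11.28 in nicotine-treated LnCaP and 11.21 to 11.30 in untreated LnCaP, and 9.71 to 10.33 in nicotine-treated 22RV1 and 9.84 to 10.48 in untreated 22RV1 (log2 expression). Of 7 markers of other cell types, only COL1A1 lay above the median. Within groups, arrays correlated with r of 0.9915 or more, and across lines with r of 0.933 or less. The 4 arrays numbered 3 stood apart, with 47.2% of the residual sum of squares, so values that rest on them are also given without them.

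The regions upstream of the ligand and adaptor genes are shown because these genes stand on either side of the receptors in the pathway, and both were matched in RefSeq (GRCh38.p14). Each line runs 5′ to 3′ on the gene's strand, from 250 bases before the start to 50 after it. Capitals mark matches, on either strand, to the GC box GGGCGG, the TATA element TATAAA and the AP-1 element TGANTCA. The TNFSF10 window (chr3:172523381-172523680, minus strand) and the FADD window (chr11:70203046-70203345, plus strand) read as follows.
TNFSF10: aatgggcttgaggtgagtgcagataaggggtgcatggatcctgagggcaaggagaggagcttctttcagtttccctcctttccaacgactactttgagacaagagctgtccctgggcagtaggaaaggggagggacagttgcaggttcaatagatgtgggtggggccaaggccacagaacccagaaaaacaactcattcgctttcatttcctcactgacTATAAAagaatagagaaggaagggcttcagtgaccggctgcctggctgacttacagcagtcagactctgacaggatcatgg
FADD: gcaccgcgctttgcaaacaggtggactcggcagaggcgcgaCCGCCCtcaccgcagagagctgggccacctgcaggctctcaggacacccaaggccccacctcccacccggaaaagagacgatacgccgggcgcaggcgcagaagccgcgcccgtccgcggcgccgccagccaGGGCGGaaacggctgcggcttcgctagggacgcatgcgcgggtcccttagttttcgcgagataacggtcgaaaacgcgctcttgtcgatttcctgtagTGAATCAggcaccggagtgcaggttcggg
The ligand's window held 1 TATAAA, whose first base lay 31 bases before the start, and no match to the other motifs. The FADD window held 2 GC boxes, 209 and 77 bases before the start, and 1 AP-1 match whose first base lay 21 bases after it. Among 35116 promoters of the same length, 45.0% held GGGCGG, 11.5% held TATAAA and 7.71% held TGANTCA. A match is a description of the letters and not of a bound factor.

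The ligand was dim in all groups. Its 3 probe sets lay above only 7.85%, 9.07% and 0.438% of all probe sets by mean level. Their highest group means were below the brightness filter of 4.77, the lower quartile of all array values. Their differences are thus differences among dim signals. In these bulk samples, fewer cells that express a gene cannot be told apart from less RNA per cell. On the ligand's brightest probe set, 202688_at, the arrays read 4.21, 3.82 and 3.75 in nicotine-treated LnCaP, 4.61, 4.70 and 4.14 in untreated LnCaP, 3.53, 3.35 and 3.38 in nicotine-treated 22RV1 and 3.38, 3.48 and 3.38 in untreated 22RV1. Nicotine-treated LnCaP arrays were lower than their same-numbered untreated arrays in 3 of 3 pairs, although the ranges overlapped. The log2 fold change for nicotine was -0.56 ± 0.15 in LnCaP and 0.0060 ± 0.15 in 22RV1 (SE, n = 3 per group). With the replicate number as a block, the LnCaP value was -0.56 ± 0.11 and passed (limma, adjusted p = 0.0245), as did 2.23% of all probe sets in that direction, whereas it did not without the block (adjusted p = 0.134).

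A second TNFSF10 probe set, 202687_s_at, read 3.81, 3.90 and 3.98 in nicotine-treated LnCaP and 4.35, 4.11 and 4.33 in untreated LnCaP. These groups did not overlap. The same probe set read 3.40, 3.37 and 3.32 in nicotine-treated 22RV1 and 3.22, 3.38 and 3.57 in untreated 22RV1, with overlap. Its nicotine log2 fold change was -0.37 ± 0.10 in LnCaP and -0.03 ± 0.10 in 22RV1. The nicotine effect in LnCaP minus that in 22RV1 was -0.56 ± 0.21 for 202688_at (adjusted p = 0.715) and -0.34 ± 0.14 for 202687_s_at (adjusted p = 0.783), so neither difference between the lines passed. The remaining TNFSF10 probe set, 214329_x_at, read between 2.98 and 3.24 on all 12 arrays, and its nicotine log2 fold change was 0.03 in LnCaP and 0.04 in 22RV1.

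**Figure D1:**
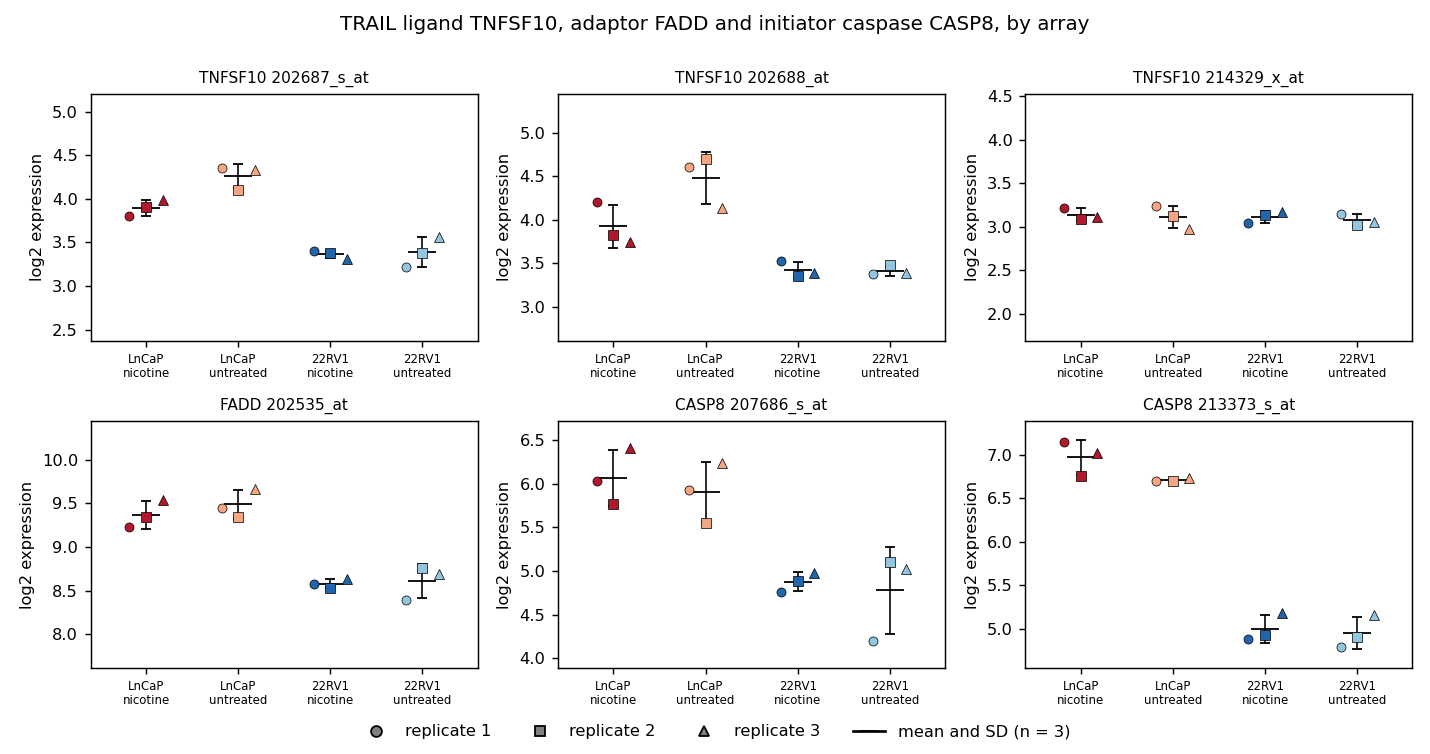
Log2 expression of the TNFSF10, FADD and CASP8 probe sets on each array, by group; points are replicates 1 to 3 and bars the mean ± SD (n = 3), and panels span equal log2 ranges around their own centres. LnCaP arrays lie above 22RV1 arrays for every panel except TNFSF10 214329_x_at, and TNFSF10 202688_at lies lower in nicotine-treated LnCaP (3.75 to 4.21) than in untreated LnCaP (4.14 to 4.70), with overlap.

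Among the receptors, TNFRSF10D was the member that chose the set. In RefSeq its gene lies on chromosome 8, as do those of TNFRSF10A and TNFRSF10B, while CASP8 and CFLAR both lie on chromosome 2. Probe set 210654_at read 7.88, 7.90 and 7.82 in nicotine-treated LnCaP and 7.43, 7.47 and 7.67 in untreated LnCaP. It read 6.21, 5.91 and 6.28 in nicotine-treated 22RV1 and 5.74, 5.51 and 5.49 in untreated 22RV1. In either line every nicotine-treated array was above every untreated array, and no neighbouring groups overlapped in the order nicotine-treated LnCaP, untreated LnCaP, nicotine-treated 22RV1, untreated 22RV1. The log2 fold change was 0.34 ± 0.11 in LnCaP (1.27-fold) and 0.55 ± 0.11 in 22RV1 (1.47-fold), and averaged over the lines 0.45 ± 0.08 (1.37-fold). Of all probe sets, 0.557% were higher without overlap in both lines. Same-numbered pairs differed by 0.45, 0.43 and 0.15 in LnCaP and by 0.47, 0.41 and 0.79 in 22RV1, so pair 3 was the smallest in LnCaP and the largest in 22RV1. Without the arrays numbered 3, the value was 0.44 in each line, and the LnCaP minus 22RV1 difference was 0.0051 in place of -0.21 ± 0.16.

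TNFRSF10B encodes DR5, a receptor with a complete death domain. Its brightest probe set, 209295_at, read 9.72, 9.61 and 9.69 in nicotine-treated LnCaP, 9.57, 9.71 and 9.69 in untreated LnCaP, 8.98, 9.01 and 8.85 in nicotine-treated 22RV1 and 8.96, 8.98 and 8.35 in untreated 22RV1. Treated and untreated arrays overlapped within both lines, while all LnCaP arrays were above all 22RV1 arrays. The nicotine log2 fold changes of the 3 probe sets were 0.07 ± 0.16 (209294_x_at), 0.01 ± 0.14 (209295_at) and -0.0063 ± 0.15 (210405_x_at) in LnCaP. In 22RV1 they were 0.30 ± 0.16, 0.18 ± 0.14 and 0.19 ± 0.15. Untreated 22RV1 replicate 3 was the lowest array of its group on all 3 probe sets, and without it the 22RV1 values were 0.080, -0.027 and 0.0090.

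**Figure D2:**
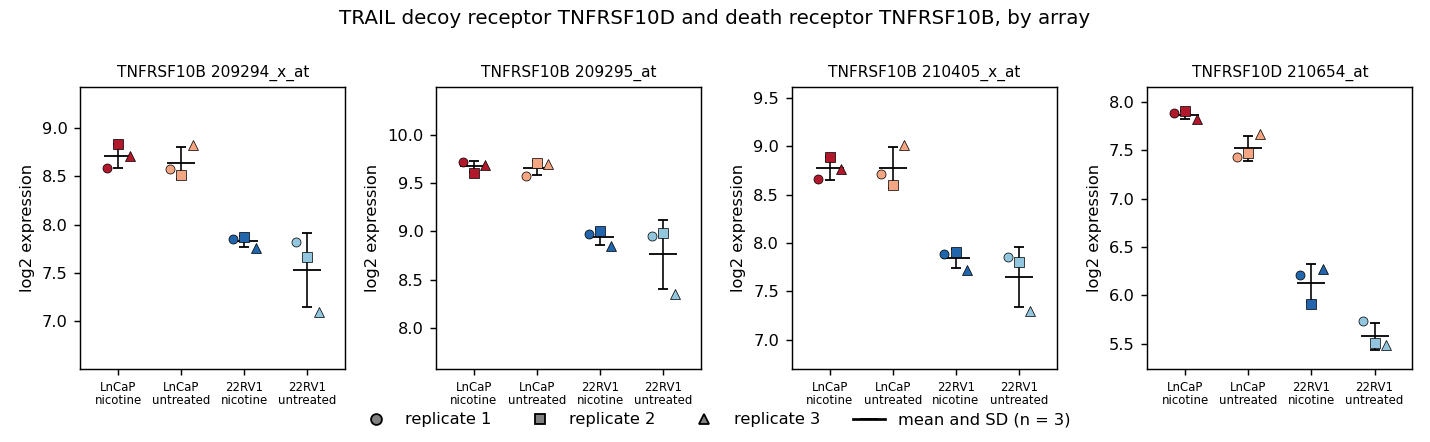
Log2 expression of the TNFRSF10D and TNFRSF10B probe sets on each array, by group; points are replicates 1 to 3 and bars the mean ± SD (n = 3), and panels span equal log2 ranges around their own centres. For TNFRSF10D the nicotine arrays lie above the untreated arrays in both lines, whereas for TNFRSF10B treated and untreated arrays overlap and untreated 22RV1 replicate 3 lies lowest.

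FADD, the adaptor, read 9.23, 9.35 and 9.54 in nicotine-treated LnCaP, 9.45, 9.35 and 9.67 in untreated LnCaP, 8.58, 8.53 and 8.63 in nicotine-treated 22RV1 and 8.39, 8.75 and 8.69 in untreated 22RV1 (202535_at). The groups overlapped within each line and not between lines. Its nicotine log2 fold change was -0.12 ± 0.12 in LnCaP and -0.03 ± 0.12 in 22RV1.

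CASP8, the initiator caspase, had 2 probe sets. Probe set 213373_s_at read 7.14, 6.75 and 7.02 in nicotine-treated LnCaP and 6.69, 6.70 and 6.73 in untreated LnCaP, without overlap. In 22RV1 it read 4.88, 4.93 and 5.18 with nicotine and 4.79, 4.91 and 5.15 untreated, with overlap. Nicotine-treated arrays were higher in 6 of 6 same-numbered pairs, as for 4.54% of all probe sets, and the log2 fold change was 0.26 ± 0.12 in LnCaP and 0.04 ± 0.12 in 22RV1. Probe set 207686_s_at read 6.04, 5.76 and 6.41 in nicotine-treated LnCaP, 5.93, 5.56 and 6.24 in untreated LnCaP, 4.76, 4.89 and 4.98 in nicotine-treated 22RV1 and 4.20, 5.10 and 5.03 in untreated 22RV1. Treated and untreated arrays overlapped in both lines on this probe set, although LnCaP arrays with nicotine were higher in 3 of 3 same-numbered pairs (0.11, 0.21 and 0.17). Its log2 fold change was 0.16 ± 0.24 in LnCaP and 0.10 ± 0.24 in 22RV1. Leaving out single arrays turned its sign in both lines, with a range of -0.014 to 0.33 in LnCaP and -0.19 to 0.26 in 22RV1, the lowest without untreated 22RV1 replicate 1. The 22RV1 value of 213373_s_at turned sign too, with a range of -0.048 to 0.14, while its LnCaP value ranged from 0.18 to 0.37.

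CFLAR, the inhibitor of CASP8, had 11 probe sets, most of a type whose probes can also match other sequences or several isoforms. The brightest, 209939_x_at, read 8.14, 8.08 and 8.17 in nicotine-treated LnCaP, 8.20, 8.26 and 8.33 in untreated LnCaP, 7.80, 7.56 and 7.60 in nicotine-treated 22RV1 and 8.00, 7.80 and 7.96 in untreated 22RV1. It was lower with nicotine in 6 of 6 same-numbered pairs, as were 4.83% of all probe sets, and its log2 fold change was -0.13 ± 0.09 in LnCaP and -0.26 ± 0.09 in 22RV1. Probe set 210563_x_at had log2 fold changes of -0.10 ± 0.09 in LnCaP and -0.30 ± 0.09 in 22RV1. By contrast, 211317_s_at read 5.97, 6.56 and 6.68 in nicotine-treated LnCaP and 6.01, 6.10 and 6.16 in untreated LnCaP, a log2 fold change of 0.32 ± 0.16, against -0.05 in 22RV1. Leaving out single arrays moved this LnCaP value between 0.18 (without nicotine-treated replicate 3) and 0.53 (without nicotine-treated replicate 1), the 22RV1 value between -0.11 and 0.053, and the LnCaP value of 210563_x_at between -0.16 and -0.017. The remaining probe sets showed 3 patterns of fitted values. Positive in LnCaP and negative in 22RV1 were 210564_x_at (0.07 and -0.29), 211316_x_at (0.14 and -0.04), 211862_x_at (0.20 and -0.05) and 217654_at (0.13 and -0.09). Positive in both were 208485_x_at (0.13 and 0.0073), 214486_x_at (0.03 and 0.10) and 214618_at (0.12 and 0.0062), and 209508_x_at was negative in LnCaP and positive in 22RV1 (-0.07 and 0.04). Over the 11 probe sets, 8 were positive in LnCaP with a median of 0.12, and 7 were negative in 22RV1 with a median of -0.05. The LnCaP minus 22RV1 difference was positive for 9, but the smallest adjusted p among them was 0.879.

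**Figure D3:**
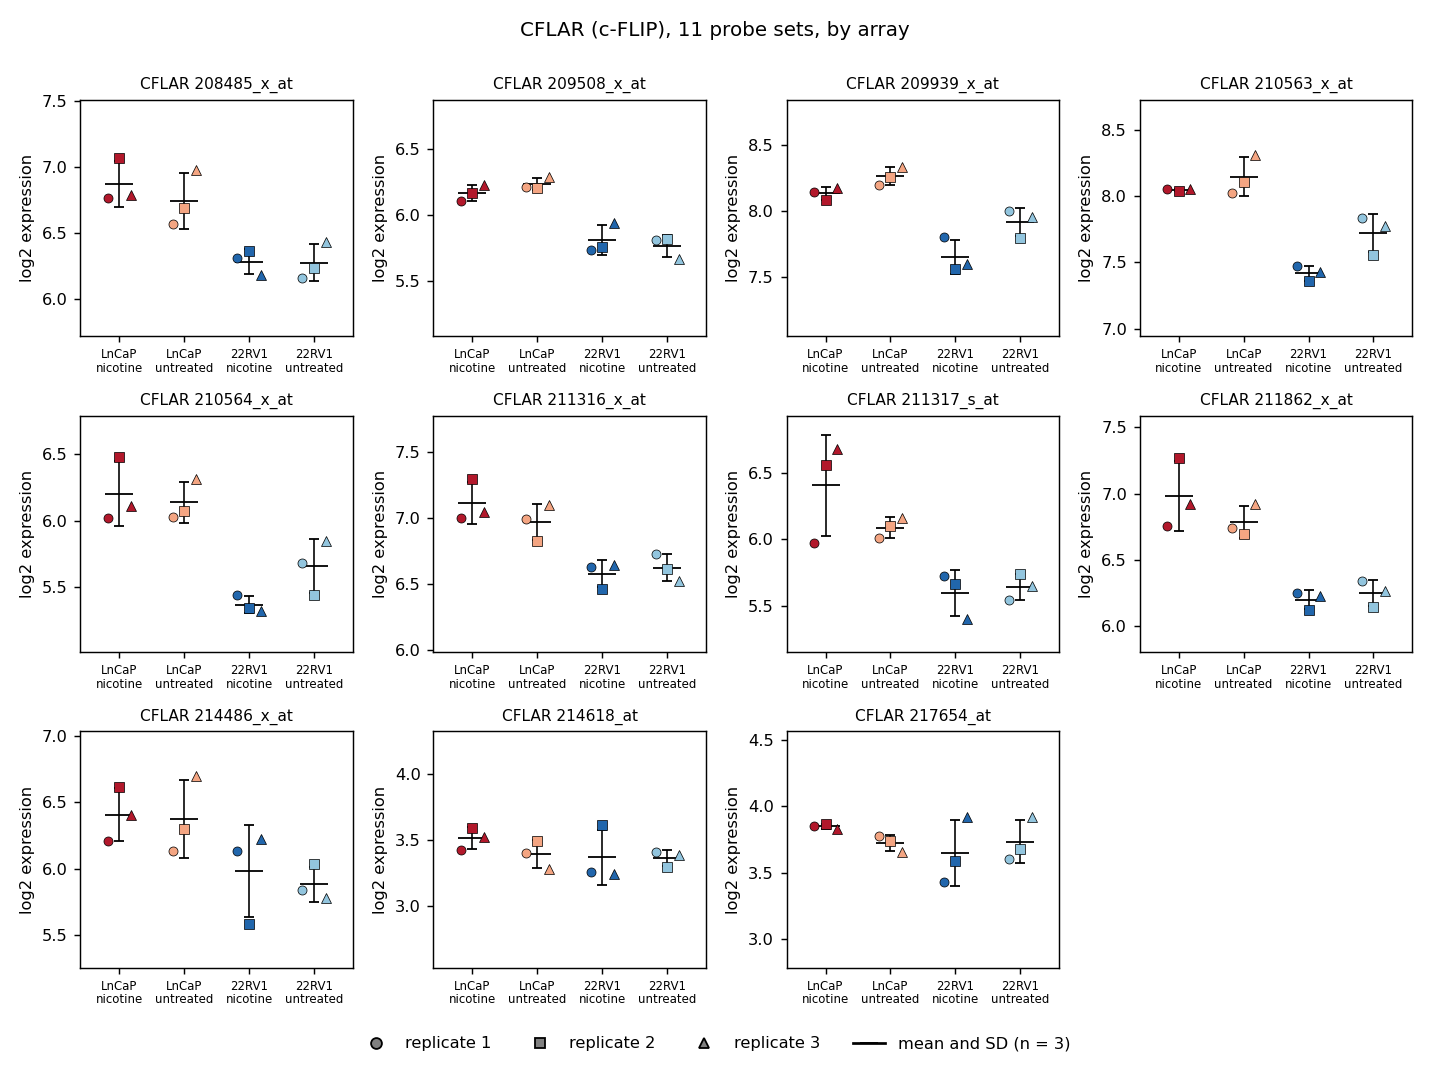
Log2 expression of the CFLAR probe sets on each array, by group; points are replicates 1 to 3 and bars the mean ± SD (n = 3), and panels span equal log2 ranges around their own centres. Probe sets of the same gene disagree on nicotine: 209939_x_at lies lower with nicotine in both lines, and 211317_s_at lies higher on 2 of the 3 nicotine-treated LnCaP arrays.

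Across the 21 probe sets, the nicotine comparisons were used in choosing the set, and their counts are given as a description. In LnCaP 0 members were called, where 0.471% of all probe sets were, and 3 had an unadjusted p under 0.05 (limma), where 10.6% of all probe sets had; with the replicate block 1 was called, where 3.80% of all probe sets were. In 22RV1 0 members were called, where 0.00% of all probe sets were, again with 3 under an unadjusted 0.05, where 5.15% of all probe sets were. For the average of both lines 1 member was called, TNFRSF10D, which was higher, where 0.211% of all probe sets were called and 0.0539% were called higher. The rise of TNFRSF10D in both lines was used to choose the set, so this call is a description of that choice and no test. That call was absent in 11 of 12 fits that left out an array, without the arrays numbered 3 and after quantile normalization. The members' median nicotine log2 fold change was 0.067 in LnCaP, against 0.0034 for all probe sets, and 0.0062 in 22RV1, against -0.0023. Both medians are values of CFLAR, to which 11 of the 21 probe sets belong. They come from 210564_x_at in LnCaP and from 214618_at, under the brightness filter, in 22RV1. The groups did not overlap for 5 members in LnCaP (3 higher and 2 lower), where 6.81% of all probe sets were higher and 8.49% lower without overlap, and for 3 in 22RV1 (1 higher and 2 lower), where 5.49% were higher and 5.84% lower without overlap. For the difference of nicotine effects between the lines, 0 members were called, where 0.00% of all probe sets were, and 2 had an unadjusted p under 0.05, where 6.08% of all probe sets had.

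**Figure D4:**
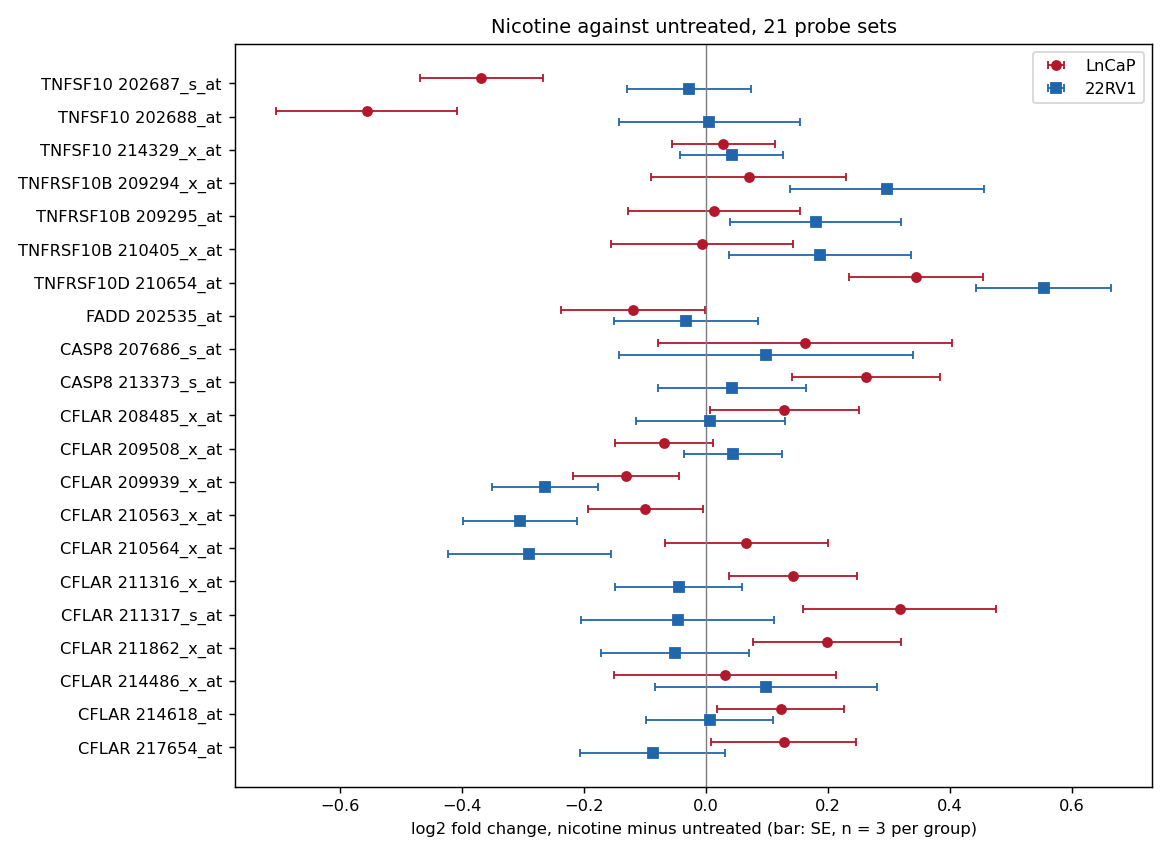
Nicotine minus untreated log2 fold change of each member probe set in LnCaP and in 22RV1; points are the fitted values and bars the standard error (n = 3 per group). TNFRSF10D lies above 0 in both lines (0.34 and 0.55), TNFSF10 202688_at lies at -0.56 in LnCaP and near 0 in 22RV1, and CFLAR probe sets lie on both sides of 0.

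Untreated LnCaP set against untreated 22RV1 is a comparison that the rule for choosing the genes did not name. It shares the untreated arrays with the nicotine comparisons, however, and the genes were chosen with earlier results of these data known. Of the 21 probe sets, 16 of which passed the brightness filter, 18 were called higher in untreated LnCaP and 0 lower, where 22.8% of all probe sets were called higher and 20.9% lower. The decoy receptor TNFRSF10D averaged 7.52 ± 0.13 in untreated LnCaP and 5.58 ± 0.14 in untreated 22RV1 (SD, n = 3 each), a log2 difference of 1.95 ± 0.11 (SE), or 3.85-fold (limma, adjusted p = 3.80e-08). CASP8 was higher by 1.76 ± 0.12 on 213373_s_at (3.38-fold, adjusted p = 2.20e-07) and by 1.13 ± 0.24 on 207686_s_at (2.19-fold, adjusted p = 0.00205). In untreated 22RV1 CASP8 averaged 4.95 on 213373_s_at and 4.78 on 207686_s_at, close to the brightness filter of 4.77. TNFRSF10D and CASP8 were the members with the largest log2 differences between the untreated lines. The luminal markers did not all differ the same way: KLK3 averaged 13.05 in untreated LnCaP and 8.96 in untreated 22RV1, KLK2 10.49 and 9.41, FOLH1 9.55 and 8.38 and HOXB13 11.47 and 11.19, while KRT8 averaged 10.40 and 10.66 and KRT18 12.58 and 12.71. Their part in the members' differences was not tested.

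DR5 (TNFRSF10B) was higher in untreated LnCaP by 1.12 ± 0.15 on 210405_x_at (adjusted p = 5.60e-05), 1.11 ± 0.16 on 209294_x_at (adjusted p = 0.000108) and 0.90 ± 0.14 on 209295_at (adjusted p = 0.000220). Without untreated 22RV1 replicate 3 these were 0.95, 0.89 and 0.69. FADD was higher by 0.88 ± 0.12 (1.84-fold, adjusted p = 6.23e-05). Death receptor, adaptor and caspase thus lay on the same side as the decoy receptor. The ligand TNFSF10 was higher by 1.07 ± 0.15 on 202688_at (adjusted p = 8.17e-05) and 0.88 ± 0.10 on 202687_s_at (adjusted p = 1.76e-05), both under the brightness filter, while 214329_x_at differed by 0.04 and did not pass (adjusted p = 0.770).

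CFLAR was higher in untreated LnCaP on 9 of its 11 probe sets, by 0.35 to 0.53 on the log2 scale. The brightest, 209939_x_at, differed by 0.35 ± 0.09 (adjusted p = 0.00606), and 211862_x_at by 0.53 ± 0.12 (adjusted p = 0.00312). The others were 208485_x_at (0.47), 209508_x_at (0.47), 210563_x_at (0.42), 210564_x_at (0.48), 211316_x_at (0.35), 211317_s_at (0.45) and 214486_x_at (0.49). The dim 214618_at and 217654_at differed by 0.03 and -0.01 (adjusted p = 0.865 and 0.952). Of the 18 calls, 14 held under every alternative in which the probe set was tested, and the other 4 were all CFLAR probe sets. The calls of 211317_s_at and 214486_x_at were each lost under 7 of 17 alternatives, namely without the arrays numbered 3 and in 6 of 12 fits that left out an array, with adjusted p up to 0.114 and 0.284. For 211317_s_at these were the fits without any one of the 6 untreated arrays. For 214486_x_at they were those without untreated 22RV1 replicate 1 or 3, untreated LnCaP replicate 2 or 3, nicotine-treated 22RV1 replicate 1 or nicotine-treated LnCaP replicate 3. The call of 211316_x_at was lost under 3 alternatives, without the arrays numbered 3 (adjusted p = 0.165) and without untreated replicate 3 of LnCaP or of 22RV1 (adjusted p = 0.0699 and 0.0611), and that of 210564_x_at under 1, without untreated 22RV1 replicate 2 (adjusted p = 0.0546). With 1 probe set per gene, the brightest, all 6 genes were called higher, where 25.4% of 11963 genes were. In the nicotine-treated arrays, 17 of the 21 probe sets were higher in LnCaP without overlap and 0 were lower, where 29.9% of all probe sets were higher without overlap.

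**Figure D5:**
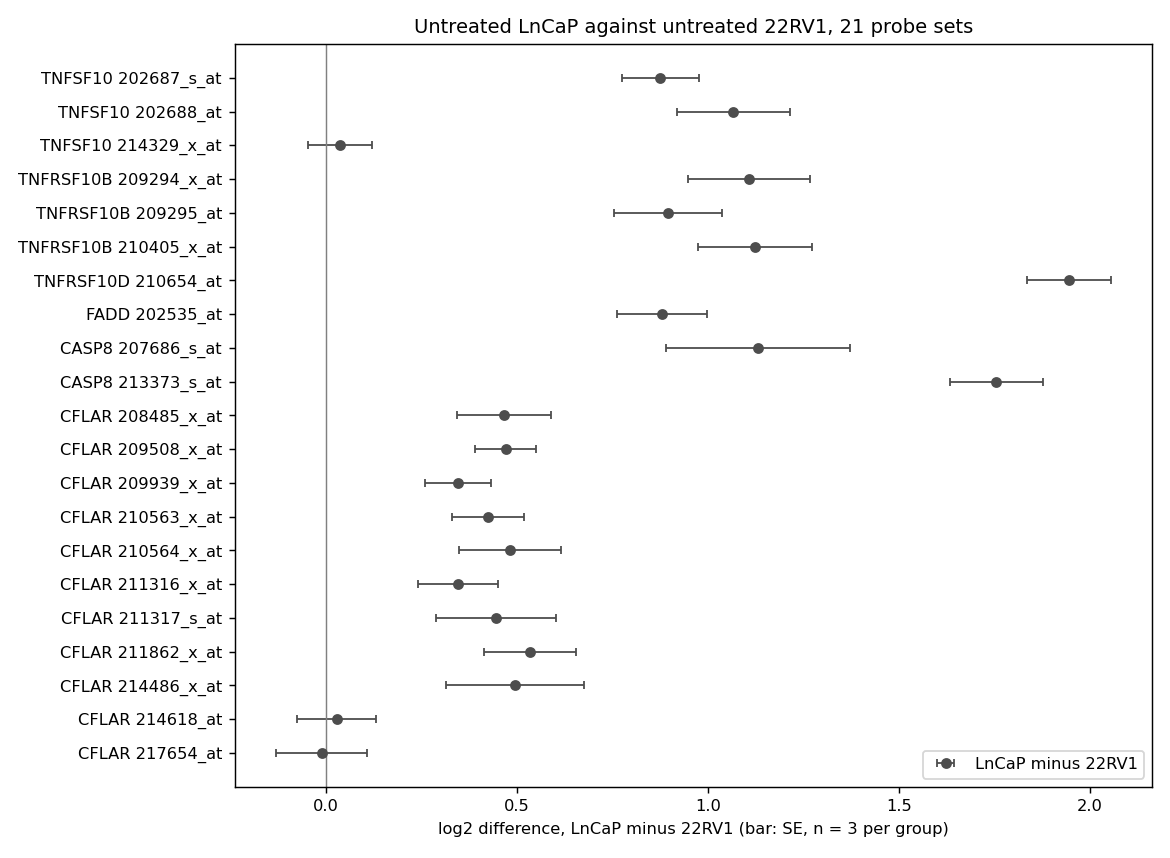
Untreated LnCaP minus untreated 22RV1 log2 difference of each member probe set; points are the fitted values and bars the standard error (n = 3 per group). Of the 21 points, 18 passed the test and lie above 0, led by TNFRSF10D at 1.95 and CASP8 213373_s_at at 1.76, and the 3 that did not pass lie close to 0.

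The genes whose profile was most like that of TNFRSF10D were found by Pearson's r over the 12 arrays after each line's mean had been subtracted, a description in which the genes share arrays, normalization and the nicotine difference. They were the serine protease gene PRSS8 (r = 0.93), RANBP10 (r = 0.91), the kinase gene RIPK4 (r = 0.91), the aldolase gene ALDOC (r = 0.90) and the histone gene H3C6 (r = 0.89). Their nicotine log2 fold changes were 0.20, 0.08, 0.08, 0.18 and 0.57 in LnCaP and 0.44, 0.33, 0.24, 0.45 and 0.57 in 22RV1. The 2 values of H3C6 were the same to 2 decimals, whereas the other 4 genes had the smaller value in LnCaP.

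The surrounding pathway was taken from 6 lists (other death and decoy receptors and ligands, other adaptors and initiators, executioner and mitochondrial genes, apoptosis inhibitors, O-glycosylation enzymes, and transcription factors), which held 45 genes, 38 of them measured by 85 probe sets. After nicotine, 2 of the 85 passed in LnCaP, where 0.359% of all probe sets were called lower. Both were lower and both belonged to BIRC5, which encodes survivin, an inhibitor of apoptosis that also serves chromosome segregation. They fell by 0.84 ± 0.11 on 202094_at (limma, adjusted p = 0.0197) and by 0.74 ± 0.12 on 202095_s_at (adjusted p = 0.0288). Leaving out single arrays gave as few as 1 call over all probe sets in LnCaP, so these 2 calls did not both hold in every such fit. For the average of both lines the same 2 BIRC5 probe sets passed as lower (limma, adjusted p = 0.0266 and 0.0449), where 0.157% of all probe sets were called lower. Leaving out single arrays gave as few as 0 calls over all probe sets for the average, so neither of these calls held in every such fit. In 22RV1 0 passed, and for the difference of effects 0 passed, where 0.00% of all probe sets did in either comparison.

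With the replicate number as a block, 8 of the 85 passed in LnCaP, where 3.80% of all probe sets did. Besides the 3 BIRC5 probe sets, 3 of 4 probe sets passed as lower for FAS, the death receptor that shares FADD and CASP8 with the TRAIL receptors. Their log2 fold changes were -0.44 (204780_s_at, adjusted p = 0.0186), -0.37 (216252_x_at, adjusted p = 0.0309) and -0.41 (204781_s_at, adjusted p = 0.0452). The transcription factor genes DDIT3 and FOXO3 were higher by 0.52 (adjusted p = 0.0299) and 0.46 (adjusted p = 0.0238). Without the block, none of these FAS, DDIT3 and FOXO3 probe sets passed, with adjusted p from 0.143 to 0.247. The remaining FAS probe set, 215719_x_at, was lower in LnCaP too, with a log2 fold change of -0.46. It passed neither with the block nor without it (limma, adjusted p = 0.0970 without). TNFRSF25, a death receptor, was the 1 listed gene with a difference of nicotine effects that passed under the block, at -0.78 for LnCaP minus 22RV1 on 210847_x_at (adjusted p = 0.0365, against 0.647 without the block), where 0.247% of all probe sets passed. Its other probe sets had differences of -0.21, -0.12, -0.06 and 0.20, so they did not all point the same way, and none passed.

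Between the untreated lines the wider pathway did not lean one way as the members did. Of its 85 probe sets, 21 were called higher in untreated LnCaP and 23 lower, where 22.8% of all probe sets were called higher and 20.9% lower. The median log2 difference was 0.0042, against 0.49 for the members and 0.043 for all probe sets. Of the 21 member probe sets 11 belong to CFLAR, and the members' median is the value of CFLAR 214486_x_at. BID, the CASP8 substrate that carries the signal to mitochondria, averaged 8.08 in untreated LnCaP and 5.44 in untreated 22RV1, a difference of 2.63 ± 0.13 on 204493_at (adjusted p = 9.13e-09), and its other probe set differed by 2.18 (adjusted p = 2.20e-07). FOXO3 was higher by 1.60 ± 0.13 (adjusted p = 1.18e-06), and GALNT3, an O-glycosylation enzyme, by 1.18 ± 0.19 on 203397_s_at (adjusted p = 0.000307) but not on 203398_s_at (0.16, adjusted p = 0.248). Lower in untreated LnCaP were TNFRSF25, with a log2 difference of -1.81 ± 0.26 on 219423_x_at (adjusted p = 0.000101), the death receptor gene TNFRSF21 with -1.46 ± 0.15 on 214581_x_at (adjusted p = 5.09e-06) and APAF1, the scaffold of the apoptosome, with -1.30 ± 0.10 on 204859_s_at (adjusted p = 5.02e-07). The other TNFRSF25 probe sets differed by -0.99, -0.74 and -0.67, which passed, and by -0.22 on 216042_at, which did not (adjusted p = 0.0863). The other TNFRSF21 probe set differed by -1.24, and those of APAF1 by -0.49 and -0.39, all of which passed. By list, 5 of 19 receptor and ligand probe sets were called higher and 7 lower. Of 13 adaptor and initiator probe sets, 6 were higher and 3 lower, and of 14 executioner and mitochondrial ones, 1 was higher and 6 lower. Of 18 inhibitor probe sets, 5 were higher and 3 lower, of 10 glycosylation probe sets, 2 were higher and 0 lower, and of 11 transcription factor probe sets, 2 were higher and 4 lower.

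TNFRSF10C, the other membrane-bound decoy receptor, was looked up after its values were seen. It was higher in untreated LnCaP by 0.86 ± 0.06 on 211163_s_at (adjusted p = 3.88e-07) and 0.71 ± 0.15 on 206222_at (adjusted p = 0.00166). Its nicotine log2 fold changes were 0.20 and 0.17 in LnCaP and 0.08 and -0.14 in 22RV1, and none of them passed. On 211163_s_at every nicotine-treated array was nevertheless above every untreated array in both lines, as it was for TNFRSF10D. Of all probe sets, 0.557% were higher in this way. On 206222_at the groups overlapped in both lines. The 22RV1 means of both probe sets lay below the brightness filter of 4.77. They were 4.23 with nicotine and 4.16 untreated on 211163_s_at, and 4.43 and 4.57 on 206222_at. The 22RV1 nicotine values of TNFRSF10C and its differences between the lines thus rest on dim 22RV1 signals. The soluble decoy TNFRSF11B (osteoprotegerin) differed by -0.16 and -0.07 between the untreated lines, and neither value passed.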

How the data were processed

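The authors deposited log2 expression values of 22277 probe sets on 12 arrays. Biotinylated cRNA from TRIzol-extracted RNA was measured on single-colour Affymetrix arrays, per the labels' protocols. How the values were normalized is not given in the sources used here; array medians lay between 6.61 and 6.71, and values were used as deposited. The number of arrays limits the precision (median SE of a log2 fold change in 22RV1, 0.11).

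Platform annotation gave 19070 probe sets 1 symbol, 1043 several and 2164 none, and Entrez identifiers matched 19058 to RefSeq. Tests were two-sided and used limma (version 3.58.1, under R 4.3.3; 4 group means, lmFit, eBayes) on all probe sets, with Benjamini-Hochberg adjustment over all probe sets of a comparison and a call at an adjusted p under 0.05. The fit was tested on simulated data. The members, lists and tests were chosen with earlier results of these data known. Named were all member probe sets, list genes called in a nicotine comparison, the 3 highest and 3 lowest called list genes between untreated lines, and the 5 genes most like TNFRSF10D. Other named genes are said to have been chosen later or are calls under the block.

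Same-numbered treated and untreated arrays deviated together (r = 0.179 to 0.627, all 6 above 0.1), so the numbers in the labels were taken as pairs. In LnCaP, untreated replicate 2 correlated better with treated replicate 1 (r = 0.257) than with its own number (0.179). Where the block changed the call of a member, the blocked value is given. The same holds for listed genes in the LnCaP nicotine comparison and the difference of nicotine effects. Other list counts are given without the block. With it, 4 of the 85 listed probe sets passed for the average of both lines, where 2.01% of all probe sets did. Between untreated lines, 22 of the 85 were then called higher and 25 lower, where 25.2% and 22.9% of all probe sets were. Alternatives were quantile normalization, a brightness filter, 1 probe set per gene, the arrays of a comparison alone, and leaving out each array or the arrays numbered 3.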

Additional observations from a re-analysis of the deposited data

Results flagged for a closer look

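CFLAR 211862_x_at stood out because the same-numbered pairs moved to opposite sides in the 2 lines. Nicotine minus untreated was 0.02, 0.58 and 5e-04 in LnCaP and -0.09, -0.02 and -0.04 in 22RV1 (log2, pairs 1 to 3). The difference of the fitted effects, LnCaP minus 22RV1, was 0.25 and did not pass (limma, adjusted p = 0.932). Without nicotine-treated LnCaP replicate 2 the difference was 0.10.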

How the results depend on the processing

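Without the replicate block, 105 probe sets were called for nicotine in LnCaP, 47 for the average of both lines, 0 in 22RV1, 0 for the difference of effects (unadjusted p under 0.05 for 1148 and 1355), and 9729 between untreated lines. With the block these were 847, 448, 0, 55 and 10712. LnCaP fell to 2 calls when its arrays were fitted alone. Without the arrays numbered 3 there were 16 calls for the average and 10 for the difference. Leaving out single arrays gave 1 to 134 calls in LnCaP, 0 to 23 for the average, 0 to 1 for the difference, 0 to 1 in 22RV1 and 8604 to 9911 between lines. One probe set per gene gave 5719 calls between lines, with fewer features tested (11963). The cause of the other shifts was not tested.

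Between untreated lines, 3 uncalled members turned sign: TNFSF10 214329_x_at (-0.025 without untreated LnCaP replicate 1, range -0.025 to 0.10), CFLAR 214618_at (-0.022 without untreated LnCaP replicate 2 and -0.0054 without untreated 22RV1 replicate 2, range -0.022 to 0.082) and CFLAR 217654_at (0.11 without the arrays numbered 3, 0.081 without untreated 22RV1 replicate 3, 0.023 without untreated LnCaP replicate 3, range -0.075 to 0.081). These ranges are over single arrays left out. TNFRSF10D ranged over single arrays left out from 0.30 to 0.42 in LnCaP, 0.48 to 0.66 in 22RV1 and 1.87 to 2.03 between untreated lines. The block changed no other member's call than that of TNFSF10 202688_at. Signal over background limits the TNFSF10 values.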
